A study of Mus musculus with 4 samples.

Results

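The genes of 3 surface proteins, *Ncam1*, *Cd44* and *Epcam*, were examined in ATAC-seq peak lists from mouse small cell lung cancer lines. They were chosen because the lines had been sorted by flow cytometry with antibodies to NCAM and CD44, and tumor cells had also been stained for EPCAM. Each locus is the gene with 100 kb on each side, and the 3 loci held 318 of the 489558 peaks listed on the chromosomes kept. They are 3 of the 21938 protein-coding genes of GENCODE M21 for which the same measures were taken.

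In ATAC-seq a transposase cuts into accessible DNA, so that peaks of reads stand where chromatin is open. The lines came from lung tumors of the *RP* model, in which floxed *Rb1* and *Trp53* (L/L) are deleted in the lung by Ad-CMV-Cre given by intratracheal intubation, on a mixed background of C57Bl/6, Balb-c and S129. The CMV promoter does not restrict Cre to 1 cell type, and all lines share both deletions. The 2 SMC lines were sorted as NCAM high and CD44 low or negative and grew in suspension, and the 2 non-SMC lines were sorted as NCAM low and CD44 high and grew attached. All 4 lines were untreated, grown in RPMI1640 with 10% FBS, and gave 1 library each. Since NCAM and CD44 protein defined the lines, the direction of a difference at *Ncam1* or *Cd44* is not independent of how the lines were chosen. The virus was given to young adult mice.

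NCAM is an adhesion molecule of the immunoglobulin superfamily that binds itself on neighbouring cells, can carry polysialic acid, and marks neurons and neuroendocrine cells. CD44 is a receptor for hyaluronan that is made in many spliced forms and is found on mesenchymal and many other cells. EPCAM is an adhesion molecule of epithelial cells that is also cleaved to release a signalling fragment. In lung, NCAM is a standard marker of neuroendocrine tumors such as small cell carcinoma.

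As deposited, the lists of SMC lines 1 and 2 named 91118 and 154039 peaks and those of non-SMC lines 1 and 2 named 115909 and 128788. All 4 lists reached down to a p-value of about 0.01, so that only 14.3% to 38.0% of the peaks kept reached a -log10 q of 5. The files gave no read depth, and the study gave total reads by line type, larger for SMC, without a value for each library. The genome-wide background recovered from the peaks was 0.456 and 1.54 in SMC lines 1 and 2 and 1.49 and 0.639 in non-SMC lines 1 and 2. At that background the lowest fold enrichment listed was 2.75 in SMC line 1 and 2.36 to 2.44 in the other libraries, so weaker openings were not detectable. Peak numbers were therefore given per 100000 peaks of the same library, and the height of a peak as the percentile of its fold enrichment within its own list. With 2 lines of each type, the smallest two-sided p of an exact permutation test is 0.333, so the line types were compared without a test. For each locus, the difference in rate over all listed peaks is given beside the SD between lines of 1 type.

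*Cd44* and *Epcam* had promoter peaks that set the line types apart, and *Ncam1* was open in both. The *Cd44* promoter held a high peak in both non-SMC lines and low peaks or none in the SMC lines. The *Epcam* promoter was open in the SMC lines, with no peak in either of the others. The *Ncam1* promoter held peaks in all 4 libraries. The sequences in which these differences and the strongest regions lie are shown first, read from GRCm38, the assembly of mm10, with promoters taken from RefSeq on the same assembly, which gave 2 of the 3 genes.

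The 250 bases before the *Cd44* start of the RefSeq promoter table, chr2:102901666-102901915, minus strand, are shown with the 125 bases under the peak of both non-SMC lines in capitals. The first bases of the window lie farthest from the gene, whose RefSeq model reaches 102901669, 4 bases into the window.
Cd44 promoter: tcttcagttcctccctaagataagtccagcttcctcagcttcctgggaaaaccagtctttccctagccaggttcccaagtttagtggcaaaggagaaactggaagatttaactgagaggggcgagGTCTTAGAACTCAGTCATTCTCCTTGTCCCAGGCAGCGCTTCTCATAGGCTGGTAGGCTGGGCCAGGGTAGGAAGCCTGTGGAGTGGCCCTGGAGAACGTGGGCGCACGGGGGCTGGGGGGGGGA
The 250 bases before the start of *Epcam*, chr17:87635729-87635978, plus strand, lie whole under a peak in SMC line 2, and the 14 capitals run from the summit of SMC line 2 to that of SMC line 1.
Epcam promoter: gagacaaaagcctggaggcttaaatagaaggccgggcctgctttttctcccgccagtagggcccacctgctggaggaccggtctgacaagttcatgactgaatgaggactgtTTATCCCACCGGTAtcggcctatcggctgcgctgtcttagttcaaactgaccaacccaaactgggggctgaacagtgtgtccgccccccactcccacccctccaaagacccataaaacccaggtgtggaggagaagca
GC made up 56.4% of both windows, with 5 CpG in the *Cd44* window and 8 in the *Epcam* window. For *Ncam1*, the 201 bases around the strongest summit in its promoter, chr9:49797239-49797439, plus strand, lie in its first intron, with 67.2% GC and 11 CpG. The 11 capitals run from the summit of SMC line 1 to that of SMC line 2.
Ncam1 first intron, all 4 libraries: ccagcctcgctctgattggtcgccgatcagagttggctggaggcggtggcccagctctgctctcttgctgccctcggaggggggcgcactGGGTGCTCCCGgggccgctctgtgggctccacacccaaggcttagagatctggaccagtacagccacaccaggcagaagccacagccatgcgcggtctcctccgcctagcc

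The strongest regions found only in the non-SMC lines are shown next, as 201 bases around the summit on the plus strand, with an AP-1 or TEAD motif in capitals. Their distances are from the transcription start of the gene, not from its end. AP-1 (TGACTCA or TGAGTCA) is bound by FOS and JUN factors, and TEAD (GGAATG) is bound by the factors with which YAP and TAZ act. Both were searched on both strands, so the CATTCC that opens the *Cd44* window 176 kb downstream is a TEAD motif on the other strand. Of the 4 matches in these windows, none overlapped another.
Cd44, 42.5 kb upstream, chr2:102944069-102944269: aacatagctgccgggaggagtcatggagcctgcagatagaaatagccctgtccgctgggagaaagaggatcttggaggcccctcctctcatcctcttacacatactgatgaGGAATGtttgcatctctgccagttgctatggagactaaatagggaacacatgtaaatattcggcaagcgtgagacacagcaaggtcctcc
Cd44, 176 kb downstream, chr2:102725155-102725355: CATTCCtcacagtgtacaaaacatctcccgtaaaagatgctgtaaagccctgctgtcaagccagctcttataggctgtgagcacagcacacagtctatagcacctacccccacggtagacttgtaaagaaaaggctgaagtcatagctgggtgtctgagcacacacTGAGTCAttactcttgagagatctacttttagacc
Ncam1, 28.9 kb upstream, chr9:49827710-49827910: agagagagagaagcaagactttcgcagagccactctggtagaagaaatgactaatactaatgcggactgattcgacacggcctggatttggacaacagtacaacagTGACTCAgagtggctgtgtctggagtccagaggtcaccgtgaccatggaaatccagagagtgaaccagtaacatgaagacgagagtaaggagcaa
The upper *Cd44* window lies outside all GENCODE genes and within a predicted long non-coding gene of RefSeq, Gm34483. The lower one lies in *Slc1a2*, which codes for a glutamate transporter.

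*Cd44* (ENSMUSG00000005087.17) lies on the minus strand at chr2:102811141-102901665, with its transcription start site (TSS) at 102901665. In its locus SMC lines 1 and 2 had 10 and 20 peaks, and non-SMC lines 1 and 2 had 32 and 35. Per 100000 peaks of the library these were 11.0, 13.0, 27.6 and 27.2, so both non-SMC lines lay above both SMC lines. The SMC lines averaged 12.0 ± 1.42 (SD, n = 2) and the non-SMC lines 27.4 ± 0.306 (SD, n = 2). The difference, SMC minus non-SMC, was -15.4, against an SD of 1.03 between lines of 1 type, and it was -16.6 in line pair 1 and -14.2 in line pair 2. Lines with the same number in the labels are called a line pair, and the labels give no other tie between them.

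Such an order, both non-SMC lines above both SMC lines, held at 20.2% of all genes. The log2 ratio of the rates at *Cd44* was -1.19, at percentile 6.17 of the 20518 genes with a ratio, whose median was 0.04. Of peaks that reached a -log10 q of 5, called strong peaks from here on, the locus held 0 of the 13062 in SMC line 1 and 2 of the 26312 in SMC line 2. It held 20 of the 43984 strong peaks of non-SMC line 1 and 16 of the 25103 of non-SMC line 2. The order held again, as it did at 28.5% of all genes with this list. The peaks were also higher within their lists, with a median percentile of 36.8 and 32.1 in the SMC lines and 75.4 and 77.5 in the non-SMC lines.

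**Figure D1:**
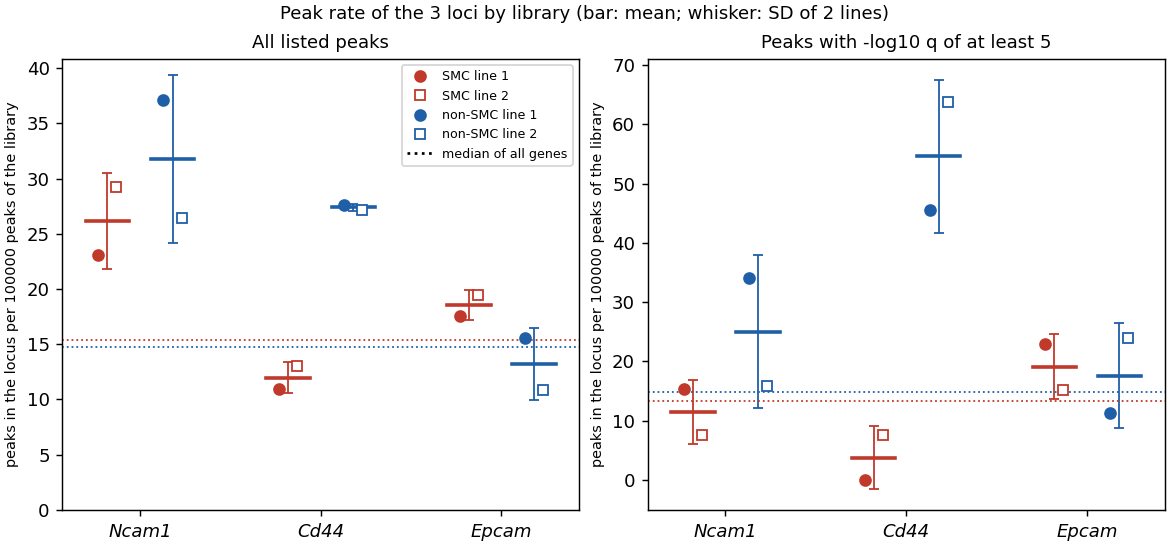
Peaks in each locus per 100000 peaks of the library, for all listed peaks (left) and for those with a -log10 q of at least 5 (right), by library, with bars for the mean and whiskers for the SD of 2 lines. Dotted lines give the median of all genes for SMC and non-SMC lines. For *Cd44* both non-SMC lines lie above both SMC lines in both panels, while for *Ncam1* the lines overlap on the left and for *Epcam* on the right.

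The promoter of a gene is here the stretch from 3 kb before to 3 kb after its TSS. No peak was listed at the *Cd44* promoter in SMC line 1. SMC line 2 had 2 peaks there, with fold enrichments of 2.52 and 2.93 and -log10 q of 0.516 and 1.04. Non-SMC line 1 had 1 peak, chr2:102901190-102901790, with a fold enrichment of 12.0 and a -log10 q of 50.2, at percentile 94.4 of its list. Non-SMC line 2 had 1 peak, chr2:102901226-102901851, with a fold enrichment of 12.4 and a -log10 q of 29.1, at percentile 98.4. The weak peaks of SMC line 2 reached percentile 43.1 at most, well under those of the non-SMC lines. Both non-SMC summits lay 101 and 102 bp inside the gene, in its first exon, which ran from 102901268 to at most 102901665.

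By all listed peaks the *Cd44* promoter thus counted in 3 of 4 libraries. By strong peaks it was open in both non-SMC lines and in no SMC line, a pattern found at 5.3% of all promoters with that list and at 2.45% with all peaks. The same pattern came from equal numbers of top peaks and from lists scaled to the lowest background. Another strong opening in the gene lay in an intron 28.2 kb from the TSS (chr2:102873050-102874228), a region chosen after its values were seen. The non-SMC peaks were at percentiles 93.5 and 90.1, that of SMC line 1 was at 27.0, and none was listed for SMC line 2.

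**Figure D2:**
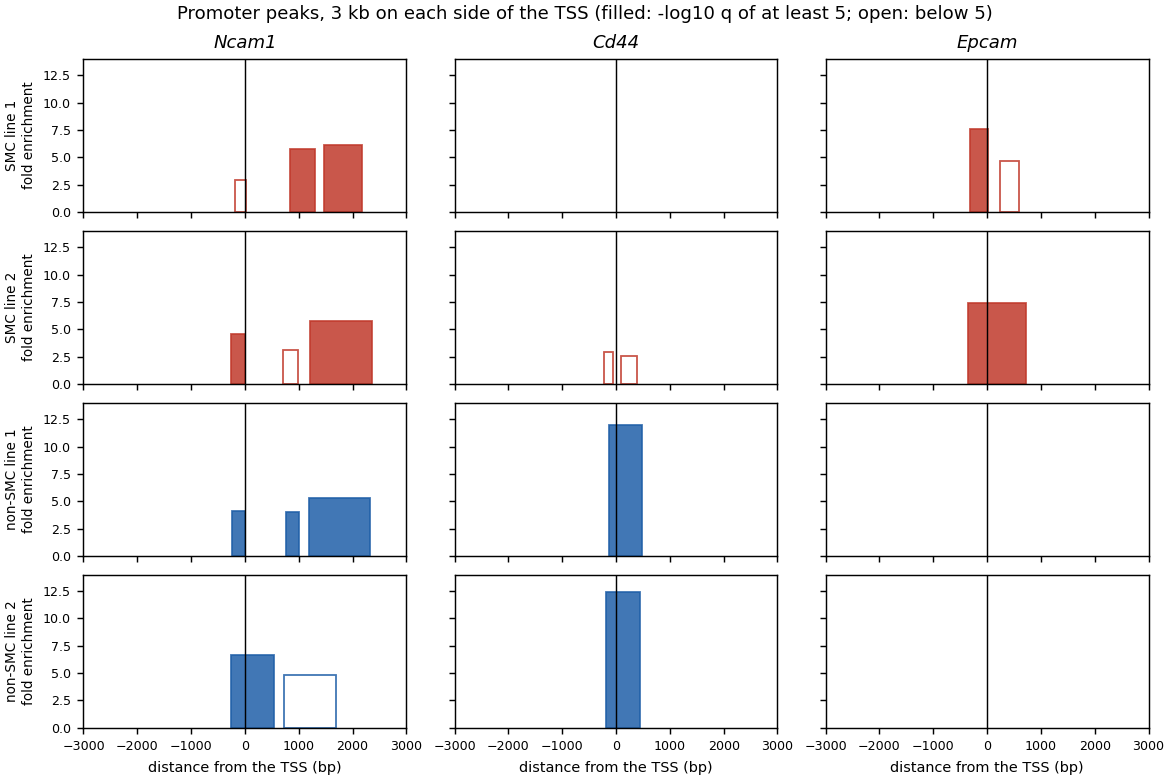
Promoter peaks by library, as the distance from the TSS in bp (x, positive in the direction of transcription) and the fold enrichment in its own library (y). Filled boxes have a -log10 q of at least 5. The *Cd44* column is filled only in the non-SMC lines, the *Epcam* column only in the SMC lines, and the *Ncam1* column in all 4 libraries.

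Regions are the 4 lists merged where peaks overlap by at least 1 base. SMC-only regions have a peak in SMC lines 1 and 2 and none in the others, and for non-SMC-only regions the line types are exchanged. Of the 57 regions of the *Cd44* locus, 17 (29.8%) were non-SMC-only, against 7.33% of all 357570 regions. Only 2 (3.51%) were SMC-only, against 4.37% of all regions, and none had a peak in all 4 libraries. The balance, SMC-only minus non-SMC-only regions, was -15, at percentile 0.255 of all genes. More non-SMC-only than SMC-only regions were found at 56.5% of all genes.

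The 17 non-SMC-only regions were spread over the locus, with 4 in the gene, 7 upstream and 6 downstream. In 9 of them the mean percentile was above 80, and in 9 both non-SMC lines had a strong peak. The strongest, 42.5 kb upstream (chr2:102943839-102944407), had a fold enrichment of 11.9 in non-SMC line 1, at percentile 94.2, and 11.0 in non-SMC line 2, at percentile 97.1. The next, 176 kb from the TSS in *Slc1a2* (chr2:102725038-102725455), was at percentiles 96.5 and 93.8. These are the regions of the sequences shown, and neither had a peak in an SMC line.

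Further upstream, the regions chr2:102956744-102957304 and chr2:102981501-102982142 had mean percentiles of 92.9 and 91.0. Within the gene, an intron region 6.29 kb from the TSS (chr2:102894840-102895689), was at percentiles 91.3 and 90.3. Another, chr2:102827932-102828774, had its summit in exon 16 of the 19 exons of Cd44-201, at percentiles 82.9 and 87.8. This exon, 102828542-102828610, belongs to all 8 protein-coding transcripts of *Cd44*. The 2 SMC-only regions both lay in the gene, 33.1 and 34.8 kb from the TSS, with mean percentiles of 37.2 and 23.1.

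Of the regions with a peak in non-SMC line 1, 21 of 32 (65.6%) also had one in non-SMC line 2, which is 61.8% of the 34 regions of that line. Over all regions these shares were 41.3% and 37.5%. The SMC lines shared 4 regions, 44.4% of the 9 in SMC line 1 and 21.1% of the 19 in SMC line 2, against 38.9% and 22.7% over all regions. At *Ncam1* and *Epcam* the non-SMC lines shared 31.0% and 33.3% of the regions of line 1 and 38.2% and 42.9% of those of line 2, and the SMC lines 35.0% and 33.3% of line 1 and 15.9% and 16.7% of line 2. Over the peaks of the locus the local background was at the median 1.13 and 1.03 times the genome-wide one in the SMC lines and 1.55 and 1.63 times in the non-SMC lines. The highest ratios were 6.06 and 4.68 in non-SMC lines 1 and 2, and the part of the background in the peak numbers was not tested. The strongest peak of an SMC line in the locus ran the other way. This region in *Slc1a2*, 156 kb from the *Cd44* TSS (chr2:102745282-102745891, chosen after its values were seen), was at percentiles 85.0 and 96.8 in SMC lines 1 and 2. It was at 69.3 in non-SMC line 2, with no peak in non-SMC line 1.

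**Figure D3:**
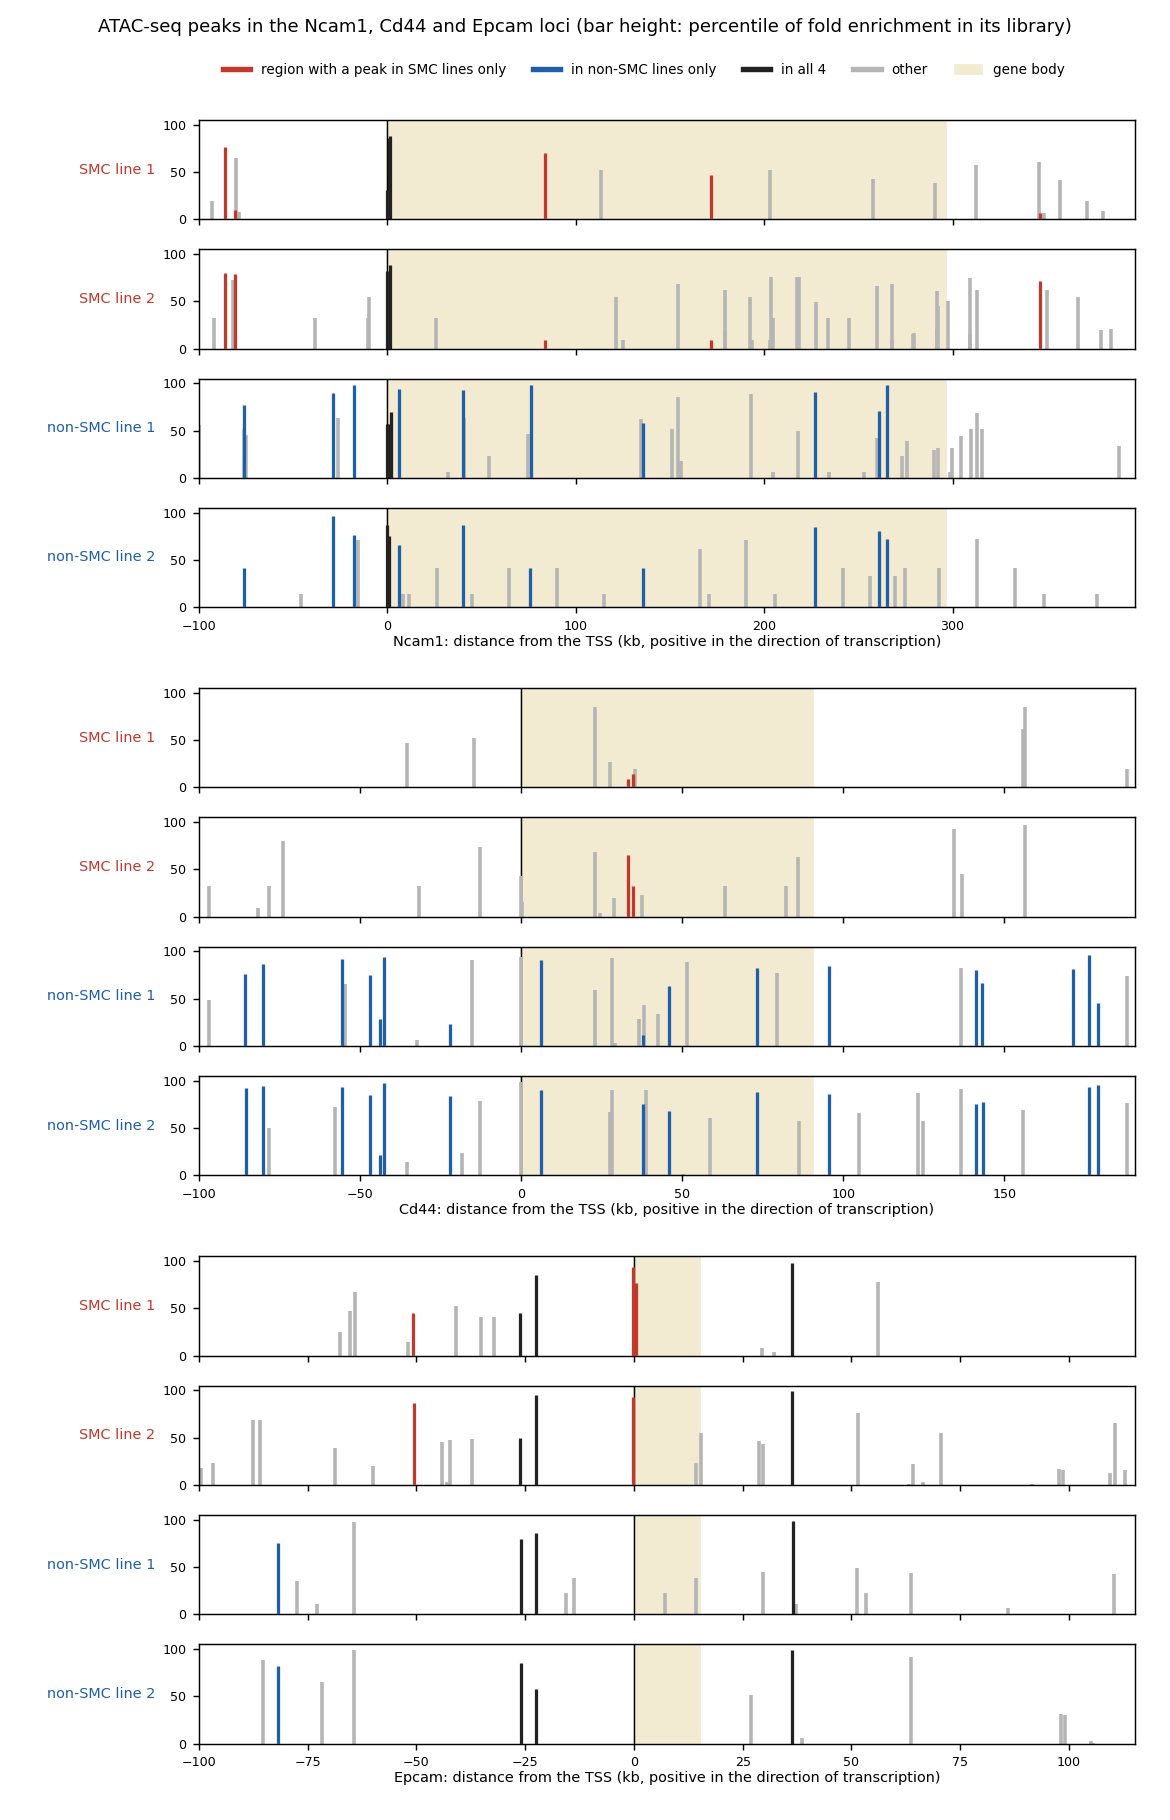
All peaks of the 3 loci by library, as the distance of the summit from the TSS in kb (x) and the percentile of its fold enrichment in its list (y), coloured by the pattern of its region, with the gene body shaded. Tall non-SMC-only bars stand across the *Cd44* locus, where 17 regions have this pattern, and in the *Ncam1* locus, where 10 have it. *Epcam* has an SMC-only bar at the TSS.

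*Epcam* (ENSMUSG00000045394.9) lies on the plus strand at chr17:87635979-87651129. At its promoter, SMC line 1 had a peak at chr17:87635662-87636000 with a fold enrichment of 7.59 and a -log10 q of 10.0, at percentile 93.4, and a lower one of 4.71-fold at chr17:87636212-87636564. SMC line 2 had 1 peak, chr17:87635615-87636697, with a fold enrichment of 7.37 and a -log10 q of 18.3, at percentile 93.5. The highest peaks of both lines had their summits 125 and 138 bp before the TSS, within the promoter sequence shown. Non-SMC lines 1 and 2 had no peak within 3 kb of the TSS. Such promoters, open in the SMC lines alone, made up 3.08% of all genes, and 1.63% by strong peaks. *Epcam* had this pattern under both.

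Over its locus *Epcam* had 16 and 30 peaks in SMC lines 1 and 2 and 18 and 14 in non-SMC lines 1 and 2. Per 100000 peaks of the library the rates were 17.6, 19.5, 15.5 and 10.9, so the SMC lines lay above the non-SMC lines, as at 20.2% of all genes. The SMC lines averaged 18.5 ± 1.35 (SD, n = 2) and the non-SMC lines 13.2 ± 3.30 (SD, n = 2). The difference was 5.32, against an SD of 2.52 between lines, and 2.03 and 8.61 in line pairs 1 and 2. Its log2 ratio was 0.49, at percentile 80.4 of the 20518 genes with a ratio. Strong peaks numbered 3, 4, 5 and 6 in the same order of libraries, and the rates of the types overlapped, whereas the SMC lines lay above at 17.9% of all genes.

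Of the 57 regions of the *Epcam* locus, 2 (3.51%, against 4.37% of all regions) were SMC-only and 1 (1.75%, against 7.33%) was non-SMC-only. Both shares were below those of all regions, and 3 regions had a peak in all 4 libraries. The promoter was the stronger SMC-only region, with a mean percentile of 93.4. The other, 50.5 kb upstream (chr17:87585218-87585628), was at percentile 44.8 in SMC line 1 and 86.4 in SMC line 2. The non-SMC-only region lay 81.9 kb upstream (chr17:87553799-87554401), at percentiles 75.5 and 81.8. Regions 22.5 and 26.0 kb upstream were among those open in all 4 libraries. The TSS of the non-coding AC122818.2, chosen after its values were seen, had peaks at percentiles 97.3 and 98.4 in the non-SMC lines and 67.3 in SMC line 1. Here the median of that background ratio was 1.61 and 1.30 in the SMC lines and 1.20 and 1.44 in the non-SMC lines, and these ranges overlap.

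*Ncam1* (ENSMUSG00000039542.16) lies on the minus strand at chr9:49502136-49798925, with its TSS at 49798925. Its promoter had peaks in all 4 libraries, as did 48.7% of all promoters. The highest was at percentiles 87.8 and 88.5 in SMC lines 1 and 2 and at 69.2 and 86.5 in non-SMC lines 1 and 2. Non-SMC line 1 was the lowest, and non-SMC line 2 lay within 2 percentiles of the SMC lines. The fold enrichments of these peaks were 6.18, 5.74, 5.32 and 6.62, with -log10 q of 6.22, 9.85, 14.5 and 7.95.

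The promoter peaks fell into 2 regions. One (chr9:49798387-49799176) covered the TSS, and its highest peak was at percentiles 30.4 and 82.2 in SMC lines 1 and 2 and at 57.4 and 86.5 in non-SMC lines 1 and 2. The other (chr9:49796560-49798215), in the first intron, was at 87.8 and 88.5 in the SMC lines and at 69.2 and 75.3 in the non-SMC lines. The intron region was thus higher in its list in both SMC lines, and in the region at the TSS the line types overlapped.

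The locus had 21 and 45 peaks in SMC lines 1 and 2 and 43 and 34 in non-SMC lines 1 and 2. Per 100000 peaks of the library the rates were 23.1, 29.2, 37.1 and 26.4, and the line types overlapped. The SMC lines averaged 26.1 ± 4.36 (SD, n = 2) and the non-SMC lines 31.8 ± 7.57 (SD, n = 2), and the difference of -5.62 was under the SD of 6.18 between lines. It had opposite signs in the line pairs, with -14.1 in pair 1 and 2.81 in pair 2, which depends on how the lines are paired. The log2 ratio of -0.28 stood at percentile 26.5 of the 20518 genes with a ratio. More peaks in the lines sorted as NCAM high were therefore not seen at this locus.

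Of strong peaks the *Ncam1* locus held 2 and 2 in SMC lines 1 and 2 and 15 and 4 in non-SMC lines 1 and 2. The rates were 15.3 and 7.60 per 100000 strong peaks in the SMC lines and 34.1 and 15.9 in the non-SMC lines. Both non-SMC lines then lay above both SMC lines, the order found at 28.5% of all genes with this list. The order rests on a narrow gap, 15.3 from 2 peaks in SMC line 1 against 15.9 from 4 peaks in non-SMC line 2. The mean difference was -13.6, against an SD of 9.87 between lines. The 2 peaks of each SMC line were all at the promoter.

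**Figure D4:**
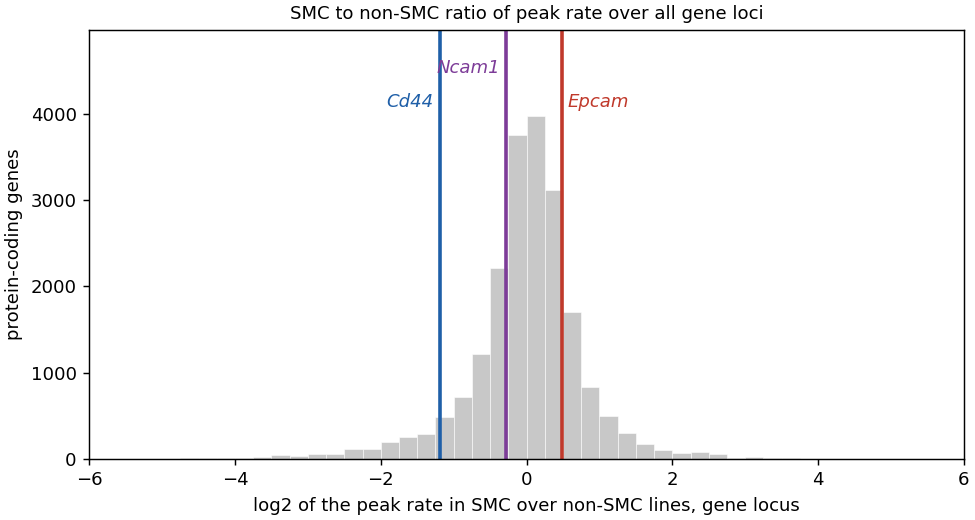
Number of protein-coding genes (y) by the log2 ratio of the mean peak rate of their locus in SMC over non-SMC lines (x), for the 20518 genes with peaks in both types, with the 3 genes marked by lines. *Cd44* stands at -1.19, *Ncam1* at -0.28 and *Epcam* at 0.49, around an overall median of 0.04.

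Of the 110 regions of the *Ncam1* locus, 85 had a peak in 1 library only. There were 10 non-SMC-only regions (9.09%, against 7.33% of all regions) and 5 SMC-only regions (4.55%, against 4.37%), and both shares were near those of all regions. The strongest non-SMC-only region, 28.9 kb upstream (chr9:49827517-49828013), was that of the sequence shown, with fold enrichments of 10.0 and 10.4, at percentiles 90.1 and 96.3. An intron region 40.2 kb from the TSS (chr9:49758496-49758879) was at percentiles 93.3 and 87.1. One 227 kb from the TSS (chr9:49571762-49572072) was at 90.3 and 84.3. These 3 were the non-SMC-only regions with a strong peak in both non-SMC lines.

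The last of them lies upstream of the annotated start of Ncam1-205, a transcript that begins within the gene, with its first exon at 49568331-49568549. None of the 5 SMC-only regions had a strong peak. The strongest, 86.1 kb upstream (chr9:49884875-49885088), was at percentiles 76.2 and 80.3. The other protein-coding starts of the locus are those of *Ankk1* and *Ttc12*. *Ttc12* had promoter peaks in all 4 libraries, at percentiles of 57.5 to 74.3. *Ankk1* had 1 in SMC line 1, at percentile 19.7.

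Motifs were counted within 100 bp of the summits. Besides AP-1 and TEAD these were an E-box (CAGCTG), which bHLH factors bind, SOX (ACAAAG or ACAATG), RUNX (TGTGGT or TGCGGT), GRHL (AACCNGTT) and forkhead (TGTTTAC), each on both strands, with overlaps between motifs allowed. Of the 17 non-SMC-only regions at *Cd44*, 7 (41.2%) held AP-1, against 46.5% of all non-SMC-only and 4.14% of all SMC-only regions. TEAD was in 6 (35.3%), against 19.3% and 9.39%. The AP-1 share at *Cd44* was near that of non-SMC-only regions in general.

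Of the 10 non-SMC-only regions at *Ncam1*, 4 (40%) held AP-1 and 6 (60%) held TEAD, against 46.5% and 19.3% of all non-SMC-only regions. None of the 5 SMC-only regions there held AP-1 or TEAD, which are rare in SMC-only regions in general (4.14% and 9.39%). Of these 5 regions, 3 held the E-box, against 21.1% of all SMC-only regions, and 4 held SOX, against 40.5%. The 2 SMC-only regions at *Cd44* both held SOX and 1 held the E-box. Of the *Epcam* SMC-only regions, the window at the promoter summit held none of the 7 motifs, and the upstream one held an E-box and a RUNX motif. The *Cd44* and *Epcam* promoter sequences shown held none of the 7 motifs. The *Cd44* sequence ends before the non-SMC summits, 101 and 102 bp inside the gene, around which motifs were not counted. Of 32851 promoters of that length, 4.46% held AP-1, 12.6% TEAD, 13.0% the E-box, 25.2% SOX, 18.6% RUNX, 1.79% GRHL and 3.17% forkhead. These are matches of letters, with few regions behind each count, and no binding was measured.

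Genes that work with the 3 proteins were taken from lists. Over all genes, 3.08% of promoters were SMC-only, 2.45% non-SMC-only and 48.7% open in all 4 libraries, and 20.2% of loci had higher rates in both lines of 1 type, in each direction. Of 12 partners of NCAM (relatives, polysialic acid enzymes, coreceptors and their ligands), 2 had an SMC-only promoter, none a non-SMC-only promoter and 5 a peak in all 4 libraries. Their loci had higher peak rates in both SMC lines at 7 genes, against 20.2% of all genes, and in both non-SMC lines at 2, with a median log2 ratio of 0.47, against 0.04 over all genes. *St8sia2*, an enzyme that adds polysialic acid to NCAM, had an SMC-only promoter at percentiles 60.2 and 61.3, and 13, 29, 10 and 7 peaks in its locus in the order of libraries used above. *Nfasc*, which codes for the adhesion molecule neurofascin, had an SMC-only promoter at percentiles 88.9 and 77.8. The locus of *Gdnf*, a ligand that can signal through NCAM, had 4 and 9 peaks in the SMC lines and 34 and 26 in the non-SMC lines.

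Of 15 partners of CD44 (hyaluronan enzymes and receptors, cytoskeletal linkers, splicing factors and ligands), 1 had an SMC-only and 1 a non-SMC-only promoter, and 8 had a peak in all 4 libraries. The non-SMC lines had the higher rates at 6 loci and the SMC lines at 3, the latter near the 20.2% of all genes, with a median log2 ratio of -0.20. *Esrp1*, an epithelial splicing factor that favours the variant exons of *Cd44*, had an SMC-only promoter at percentiles 89.4 and 89.5. *Spp1*, which codes for the CD44 ligand osteopontin, had a non-SMC-only promoter at percentiles 81.5 and 84.6, and 3 and 6 peaks in its locus in the SMC lines against 20 and 31 in the non-SMC lines. *Has2*, a hyaluronan synthase, had 8 and 9 locus peaks in the SMC lines and 22 and 21 in the non-SMC lines.

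Of 12 partners of EPCAM (claudins, tetraspanins, proteases and their inhibitors, and junction proteins), 1 had an SMC-only promoter and none a non-SMC-only one, and 4 had a peak in all 4 libraries. Rates were higher in the SMC lines at 3 loci and in the non-SMC lines at 3, both near the 20.2% of all genes, with a median log2 ratio of 0.10. *Cdh1*, which codes for E-cadherin, had the SMC-only promoter, at percentiles 87.4 and 88.0, and its locus rates overlapped.

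Of 16 other surface markers, 1, *Vcam1*, an adhesion molecule for leukocytes, had a non-SMC-only promoter, at percentiles 55.8 and 68.8, and none had an SMC-only promoter. By strong peaks *Prom1* and *Kit* had SMC-only promoters and *Pvr* had a non-SMC-only one, which *Vcam1* then lacked. By the same list *Nfasc*, *Esrp1*, *Spp1* and *Cdh1* kept their patterns, *St8sia2* lost its own, and *Gfra1* and *Hyal1* became non-SMC-only. The loci of 4 markers had higher rates in each line type, near the 20.2% of all genes, with a median log2 ratio of 0.01.

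The labels of the lines were set against marker genes. Promoter peaks at 7 neuroendocrine markers were listed for 6 and 7 in the SMC lines and 4 and 4 in the non-SMC lines, and the loci of 5 of them had higher rates in both SMC lines and none in both non-SMC lines, against 20.2% of all genes in each direction, with a median log2 ratio of 0.83. Of all promoters, 62.2% and 69.3% had a peak in the SMC lines and 64.6% and 64.9% in the non-SMC lines. Strong peaks stood at 1 and 6 of the 7 promoters in SMC lines 1 and 2 and at 1 and 0 in non-SMC lines 1 and 2. The shares of all promoters with a strong peak are given below. *Chga*, which codes for chromogranin A, had an SMC-only promoter at percentiles 88.6 and 82.0. *Neurod1* had no promoter peak in SMC line 1, and its promoter was at percentile 97.4 in SMC line 2. In non-SMC lines 1 and 2 it was at 38.6 and 61.1. The *Neurod1* locus had 1 and 18 peaks in the SMC lines and 15 and 13 in the non-SMC lines. Of 7 mesenchymal or non-neuroendocrine markers, 5 loci had higher rates in both non-SMC lines and none in both SMC lines, against 20.2% of all genes in each direction, with a median of -1.06. *Vim*, the intermediate filament of mesenchymal cells, had 3 and 6 locus peaks in the SMC lines and 15 and 20 in the non-SMC lines.

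Of the markers of other cells that a tumor holds, those of leukocytes and endothelium had few strong promoter peaks. Of all promoters, 27.7% and 41% had a strong peak in the SMC lines and 49.5% and 36.4% in the non-SMC lines. Of 8 leukocyte markers, 0 and 3 promoters had a peak in the SMC lines and 3 and 5 in the non-SMC lines, and strong peaks stood at 1 promoter in non-SMC line 1 and at none in the other libraries. The promoter of *Ptprc*, the common leukocyte antigen, had a peak in 1 library. Of 5 endothelial markers, 2 to 3 promoters had a peak in each library and at most 1 a strong peak, and *Pecam1* had a non-SMC-only one at percentiles 77.4 and 41.7. Of 5 fibroblast markers, 2 and 2 promoters had a peak in the SMC lines and 3 and 4 in the non-SMC lines. Strong peaks stood at 2 of them in each non-SMC line, *Col1a1* and *Col1a2*, against 0 in the SMC lines. The part of such cells in the non-SMC values was not tested.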

How the data were processed

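ATAC-seq had been performed on 4 mouse lines, 1 library each, and the values analyzed were 1 list of peaks per library. The authors aligned read pairs with Bowtie2 2.3.4 (mm10), took out duplicates with sambamba and ran MACS2 2.1.1 on each library alone. Its settings are not given in the sources used here. The authors deposited the fold enrichment at each summit as a ratio of pileup to local background. The deposited -log10 values are of the p-value and the q-value. The score that the authors deposited in the lists was not used.

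Between 61 and 85 peaks per library lay off the autosomes, X and Y and were dropped. The fold enrichment and p-value of a peak gave back its pileup and background, under the MACS2 formula with 1 added to both, and 3 to 5 peaks per library gave none. On 18471 simulated peaks, 100% were recovered within 1%, and overlap counts were tested on 5000 simulated peaks with 0 differences from bedtools 2.31.1. The genome-wide background was the most frequent value of a library. Loci, promoters, regions and motif windows are described with the results, and the same measures were taken over all 21938 genes. Scripts used pandas 2.3.3, scipy 1.17.1 and numpy 2.4.6 under Python 3.11.15, with samtools 1.23.1 for sequences and matplotlib 3.10.9 for figures.

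The genes, partner and marker lists, motifs and alternatives were chosen with earlier results of these data known. The text names the 3 genes with their promoter peaks, the strongest regions of each pattern, protein-coding genes with a TSS in a locus, and list genes with a promoter in 1 line type. Some results under this rule are not reported here. *Gdnf*, *Has2*, *Neurod1*, *Vim* and *Ptprc*, and regions past the strongest of a pattern, were named after their values were seen. Alternatives were strong peaks (-log10 q of 5 or more), the 91057 top peaks of each library, lists scaled to the lowest background, a reciprocal overlap of 50%, the gene body or 50 kb flanks, summits in place of peaks, narrower promoters, line pairs and each library left out.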

Additional observations from a re-analysis of the deposited data

Results flagged for a closer look

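The difference in peak rate at *Ncam1*, SMC minus non-SMC, was -14.1 per 100000 peaks in line pair 1 and 2.81 in line pair 2. It stands out because the line pairs moved in opposite directions, and the difference between the pairs was not tested. The rates behind it were 23.1 and 37.1 in pair 1 and 29.2 and 26.4 in pair 2. The pairs follow the numbers in the labels alone. Paired the other way, the SMC rates of 23.1 and 29.2 would stand against 26.4 and 37.1, and both would be lower. At *Cd44* and *Epcam* both pairs moved the same way, as any pairing must where the rates of the line types do not overlap.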

How the results depend on the processing

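No mean rate difference changed sign under the alternatives run, apart from *Ncam1* in line pair 2 alone (2.81), and the promoter results of *Epcam* and *Ncam1* were the same in each. Values that moved by more than the spread between lines, or counts that moved by more than 1.5 times, are given here, and the cause was not tested unless a smaller window or list shows it. With strong peaks alone (-log10 q of 5 or more) the rate difference was -13.6 at *Ncam1*, -50.8 at *Cd44* and 1.45 at *Epcam*, per 100000 strong peaks. The SD between lines of these strong-peak rates was 9.87, 9.89 and 7.37. SMC-only regions then numbered 0 at *Ncam1*, 0 at *Cd44* and 1 at *Epcam*, and non-SMC-only regions 3 at *Ncam1* and 3 at *Epcam*. With equal numbers of top peaks the difference was -23.1 at *Cd44*, with 3 SMC-only regions at *Ncam1*, 1 at *Cd44* and 2 non-SMC-only regions at *Epcam*. With lists scaled to the lowest background the difference was -12.5 at *Ncam1* and -35.6 at *Cd44*, with 1 and 0 SMC-only regions. These 3 alternatives moved the *Cd44* promoter count, SMC minus non-SMC libraries, from -1 to -2.

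A reciprocal overlap of 50% gave 2 SMC-only and 5 non-SMC-only regions at *Ncam1*, 1 SMC-only at *Cd44*, and 1 SMC-only and 3 non-SMC-only at *Epcam*. The gene body alone gave differences of -3.89 at *Cd44* and 0.884 at *Epcam*, with 2 SMC-only regions at *Ncam1*, 4 non-SMC-only at *Cd44*, and 1 SMC-only and 0 non-SMC-only at *Epcam*. Flanks of 50 kb gave -9.28 at *Cd44*, 3 SMC-only regions at *Ncam1*, 9 non-SMC-only at *Cd44*, and 1 and 0 at *Epcam*.

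Leaving out 1 library left a pattern resting on a single line of that type. SMC-only regions then ranged from 5 to 35 at *Ncam1*, 3 to 10 at *Cd44* and 2 to 23 at *Epcam*, the highest without SMC line 1. Non-SMC-only regions ranged from 10 to 33 at *Ncam1*, 19 to 26 at *Cd44* and 2 to 10 at *Epcam*, the highest without a non-SMC line. Without SMC line 1 *Ncam1* had more SMC-only (35) than non-SMC-only (10) regions, and without SMC line 2 it had 17 and 11. The *Cd44* promoter count was -2 when SMC line 2 was left out and 0 when SMC line 1 was. The rate difference at *Ncam1* was -11.0 when non-SMC line 2 was left out and -0.27 when non-SMC line 1 was. Averaging within line pairs, as a replicate block, gives the same mean differences by arithmetic, -5.62, -15.4 and 5.32.

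Peaks reach down to a p-value of 0.01, most regions have a peak in 1 library, and SMC line 1, with the lowest background, lists no opening under 2.75-fold where the local background is at its genome-wide level. A missing peak is therefore not a closed site.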
